A study of Mus musculus with 20 samples.

Results

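The 9 genes described here are the Krüppel-like factors Klf2, Klf3, Klf4, Klf5, Klf6, Klf7, Klf9, Klf10 and Klf13, taken by gene symbol from an RNA-seq table of 29692 genes in mouse embryonic stem cells. The table holds 17 Klf genes, of which these 9 are the members and the other 8 are given briefly. The cells were cultured in serum with leukemia inhibitory factor (LIF) and split into 3 states in a flow sorter by Nanog and Sox2, which are pluripotency factors. The first, state 1, was Nanog high and Sox2 high, state 2 was Nanog low and Sox2 high, and state 3 was Nanog low and Sox2 low. The total population was not split by state. No genotype, treatment or line name is given for the cells, and the labels do not say how the sorter read Nanog and Sox2.

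Krüppel-like factors are transcription factors with a conserved set of zinc fingers at the carboxyl end that bind GC-rich and CACCC-type DNA. Their amino-terminal parts differ and set the cofactors they bind. In mouse embryonic stem cells Klf2, Klf4 and Klf5 share many targets with Nanog, Oct4 and Sox2 and can stand in for one another in self-renewal. Klf4 is a target of LIF and STAT3, Klf2 of ERK5 and MEF2 in endothelial and other cells, and Klf10 of TGF-beta. Klf3, with Klf8 and Klf12, binds the corepressor CtBP, and Klf9, Klf10 and Klf13, with Klf11, Klf14 and Klf16, bind the corepressor Sin3.

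RNA-seq covered 12 libraries, 3 for each of the 4 groups, and the table gives 1 value per gene and group with no spread between libraries. Column totals were 16.9 to 17.7 M value units, and about 48.0 to 60.4 M reads or read pairs stood behind a column if its commonest low value is the worth of 1 read. A difference between a pair of groups was called where the authors' deposited EBSeq probabilities summed to at least 0.95 for unequal groups. The order of the pattern columns behind these sums was inferred from the values. Log2 ratios and folds use values plus 1. How far that probability rests on the spread between libraries is not given, and the labels do not say that libraries came from separate cultures. All 10 embryonic stem cell markers looked up were measured in every group. The sort genes Nanog and Sox2 are among these markers, so the counts and sums that follow are not independent of the sort. Against state 1, 3 of the 10 markers were called lower in state 2 and 4 in state 3, and 0 were higher. Over all genes, 6.33% and 9.01% were called lower in these comparisons. The summed values of the markers were 77803, 63070, 52548 and 71823 in state 1, state 2, state 3 and the total population. In bulk RNA, fewer cells with a transcript and less transcript per cell cannot be told apart.

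Upstream sequence is shown for 3 members that differed most between the states: Klf2 and Klf4, which were lower from state 1 to state 3, and Klf6, which was higher. Each run is the 250 bases before the RefSeq start in GRCm38.p6, read 5′ to 3′ on the gene's strand. Capitals mark GC boxes (GGGCGG on either strand), which Krüppel-like and Sp factors can bind, and the MEF2 motif, which is CTA, any 4 bases, then TAG.
Klf2, chr8:72318812-72319061, plus strand: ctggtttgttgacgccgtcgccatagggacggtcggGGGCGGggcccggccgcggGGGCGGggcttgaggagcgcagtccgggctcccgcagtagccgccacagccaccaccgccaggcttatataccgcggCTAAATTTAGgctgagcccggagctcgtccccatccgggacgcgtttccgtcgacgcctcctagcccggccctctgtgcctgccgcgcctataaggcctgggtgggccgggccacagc
Klf4, chr4:55532476-55532725, minus strand: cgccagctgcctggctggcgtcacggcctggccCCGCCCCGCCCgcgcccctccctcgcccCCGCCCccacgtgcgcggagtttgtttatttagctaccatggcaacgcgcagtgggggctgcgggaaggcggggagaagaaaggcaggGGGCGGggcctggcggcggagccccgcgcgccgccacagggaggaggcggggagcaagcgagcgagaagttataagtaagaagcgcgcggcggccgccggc
Klf6, chr13:5861239-5861488, plus strand: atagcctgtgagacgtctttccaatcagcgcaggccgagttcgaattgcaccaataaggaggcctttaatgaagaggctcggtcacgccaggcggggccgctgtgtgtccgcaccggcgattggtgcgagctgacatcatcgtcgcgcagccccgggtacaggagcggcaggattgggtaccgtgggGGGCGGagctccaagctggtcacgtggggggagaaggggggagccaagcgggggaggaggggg

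The Klf2 window held 2 GC boxes and 1 MEF2 motif, CTAAATTTAG, whose last base lay 109 bases before the start. The Klf4 window held 4 GC boxes, of which a pair overlap by 1 base, and the Klf6 window held 1. Of 32851 upstream windows of the same length in the RefSeq table, 32.7% held a GC box and 3.20% the MEF2 motif. The RefSeq table held a window for 7 of the 9 members, without Klf5 and Klf10. Among those 7, the MEF2 motif was found in Klf2 only, and a GC box in all except Klf9. The STAT motif TTCNNNGAA, in 7.02% of all windows, was found in Klf9 only and not in the Klf4 window, so these letters are not in the 250 bases searched there. The CACCC box was in 5 of the 7 windows, without Klf4 and Klf6, and in 52.0% of all windows. The AP-1 motif TGANTCA was in Klf9 only (6.75% of all windows), and the cyclic AMP response element was in 0 of the 7 (1.55%). Both strands were searched for each motif. These matches describe letters and are not binding sites.

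The members most tied to naive pluripotency were lower in the Nanog-low states. Klf2 (ENSMUSG00000055148.7; chromosome 8, 72319062 to 72321654 in GRCm38), a factor of the naive network, had values of 3021 in state 1, 1282 in state 2, 337 in state 3 and 2215 in the total population. State 1 was highest and state 3 lowest, with the total population between state 1 and state 2. Klf2 fell 2.36-fold from state 1 to state 2 (log2 -1.24) and a further 3.80-fold from state 2 to state 3 (log2 -1.93), and both steps were called. State 3 held 11.2% of the state 1 value.

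Klf4 (ENSMUSG00000003032.8; chromosome 4, 55527137 to 55532475), a reprogramming factor, had values of 2425 in state 1, 637 in state 2, 282 in state 3 and 2166 in the total population. The order of the groups was that of Klf2, but the larger step came first. It fell 3.80-fold from state 1 to state 2 (log2 -1.93), which was called. From state 2 to state 3 the value was 2.25-fold lower (log2 -1.17) with a summed probability of 0.785, under the limit, so this step was not called. Across the whole series Klf2 and Klf4 were close, with log2 ratios of state 3 to state 1 of -3.16 and -3.10. Of that log2 distance, state 2 had covered 0.391 for Klf2 and 0.622 for Klf4, beside a median of 0.603 (quartiles 0.415 and 0.791) over the 6070 genes called between state 3 and state 1. Whether these positions differ between Klf2 and Klf4 could not be tested with 1 value per group.

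Klf5 (ENSMUSG00000005148.7; chromosome 14, 99298691 to 99313412), which acts in self-renewal and in the trophectoderm of the blastocyst, fell in the first step only. Its values were 5328 in state 1, 2859 in state 2, 3016 in state 3 and 4724 in the total population. State 1 and the total population were high and the Nanog-low states low. The fall from state 1 to state 2 was 1.86-fold (log2 -0.90) and was called, and the log2 ratio of state 3 to state 2 was 0.077 with a summed probability of 0.0464. The joint probability that states 2 and 3 were equal and state 1 apart was 0.954 for Klf5. State 3 kept 56.6% of the state 1 value, against 11.2% for Klf2 and 11.6% for Klf4.

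**Figure D1:**
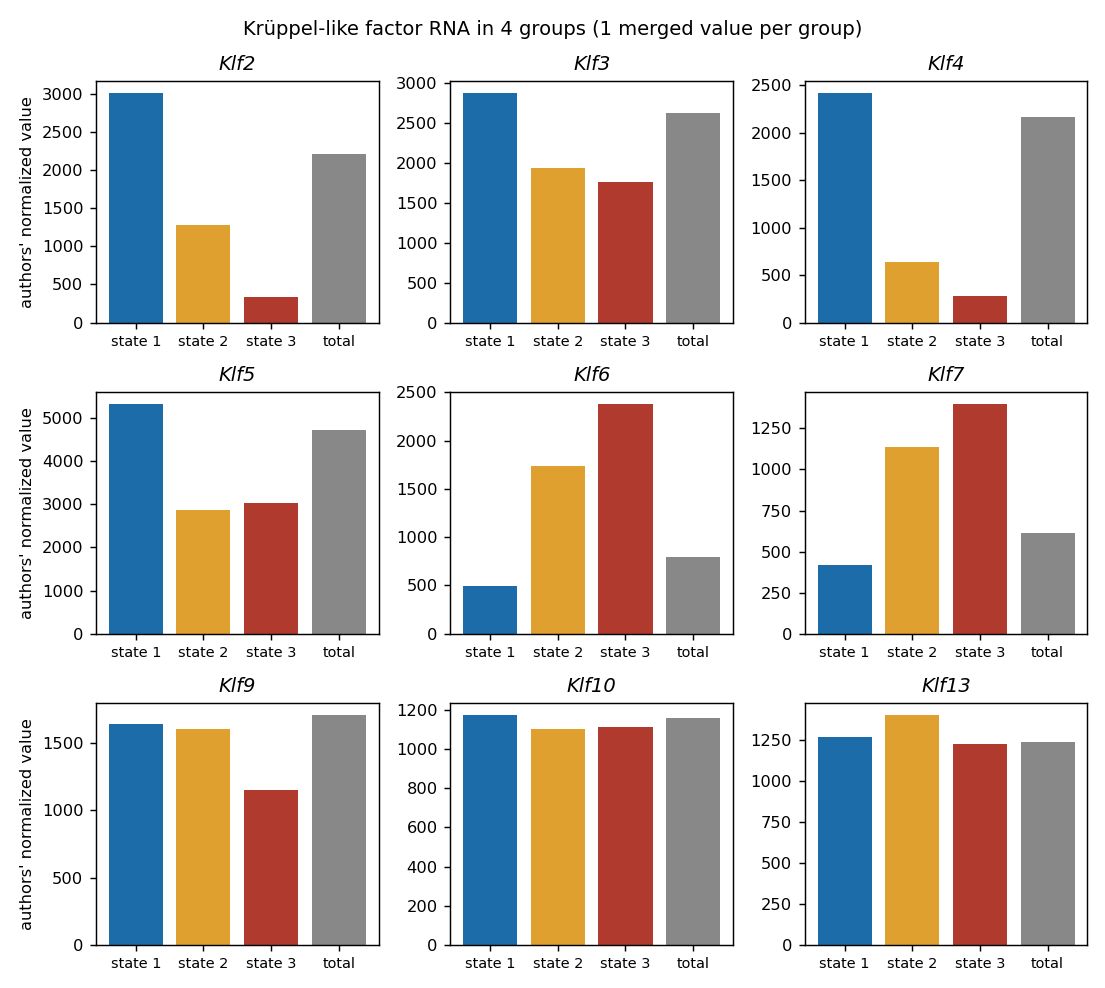
Authors' normalized value (vertical axes from 0, scaled separately for each gene) of the 9 members in state 1, state 2, state 3 and the total population, as bars of 1 merged value per group with no error. Klf2 and Klf4 step down to 337 and 282 in state 3, Klf6 and Klf7 step up to 2384 and 1401, and Klf10 and Klf13 are nearly level.

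Klf6 and Klf7 went the other way. Klf6 (ENSMUSG00000000078.7; chromosome 13, 5861489 to 5870393), a widely expressed activator that responds early to injury and growth signals, had values of 495 in state 1, 1735 in state 2, 2384 in state 3 and 792 in the total population. State 1 was lowest and state 3 highest. Klf6 rose 3.50-fold from state 1 to state 2 (log2 1.81) and 1.37-fold from state 2 to state 3 (log2 0.46). Both steps were called, the second with a summed probability of 0.981, and it is lost at a limit of 0.99 or where a 1.5-fold change is also asked for.

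Klf7 (ENSMUSG00000025959.13; chromosome 1, 64029448 to 64122345), known for its role in developing neurons, had values of 415 in state 1, 1139 in state 2, 1401 in state 3 and 614 in the total population. The groups stood in the same order as for Klf6. Klf7 rose 2.74-fold from state 1 to state 2 (log2 1.45), which was called. The log2 ratio of state 3 to state 2 was 0.30 with a summed probability of 0.837, which was not called. State 2 had covered 0.798 of the log2 distance to state 3 for Klf6 and 0.829 for Klf7.

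Klf3 (ENSMUSG00000029178.14; chromosome 5, 64803521 to 64832901), a CtBP-dependent repressor, followed the falling members with a smaller change. Its values were 2877 in state 1, 1935 in state 2, 1762 in state 3 and 2621 in the total population. State 1 and the total population were the higher pair. The fall from state 1 to state 2 was 1.49-fold (log2 -0.57) and was called. Against the total population Klf3 was called lower in state 2 and state 3, 1.35-fold and 1.49-fold. These 3 calls are lost where a 1.5-fold change is also asked for, and the 1.63-fold fall from state 1 to state 3 is not. From state 2 to state 3 the log2 ratio was -0.14 with a summed probability of 0.436. The probabilities were split between states 2 and 3 being equal, at 0.564, and all 3 states being apart, at 0.436.

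Klf9, Klf10 and Klf13, the members that bind Sin3, were not called in any of the 6 comparisons. Klf9 (ENSMUSG00000033863.1; chromosome 19, 23141226 to 23168129), a target of glucocorticoid and thyroid hormone, had values of 1645 in state 1, 1604 in state 2, 1153 in state 3 and 1711 in the total population. State 3 was lowest, 1.43-fold under state 1 (log2 -0.51), with a summed probability of 0.370. The joint probability of Klf9 was 0.630 for 3 equal states and 0.351 for state 3 apart, so these data do not settle it either way.

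Klf10 (ENSMUSG00000037465.9; chromosome 15, 38291464 to 38300711), an early gene of TGF-beta signalling, had values of 1176 in state 1, 1102 in state 2, 1115.5 in state 3 and 1159.6 in the total population. The 4 values spanned 0.094 on the log2 scale. Klf13 (ENSMUSG00000052040.10; chromosome 7, 63886351 to 63938915), a factor first studied in lymphocytes, had values of 1269, 1404, 1228 and 1237 in the same order and spanned 0.19. The probability of 3 equal states was 0.935 for Klf10 and 0.953 for Klf13. Over the 9 members, 1 arrangement of the states reached 0.95 for 4: all 3 apart for Klf2 and Klf6 (3.51% of all genes), state 1 apart for Klf5 (3.78%) and equal states for Klf13. A probability of 0.95 or more for equal states was held by 55.2% of all genes and by 23.7% of genes with a mean value of at least 100.

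**Figure D2:**
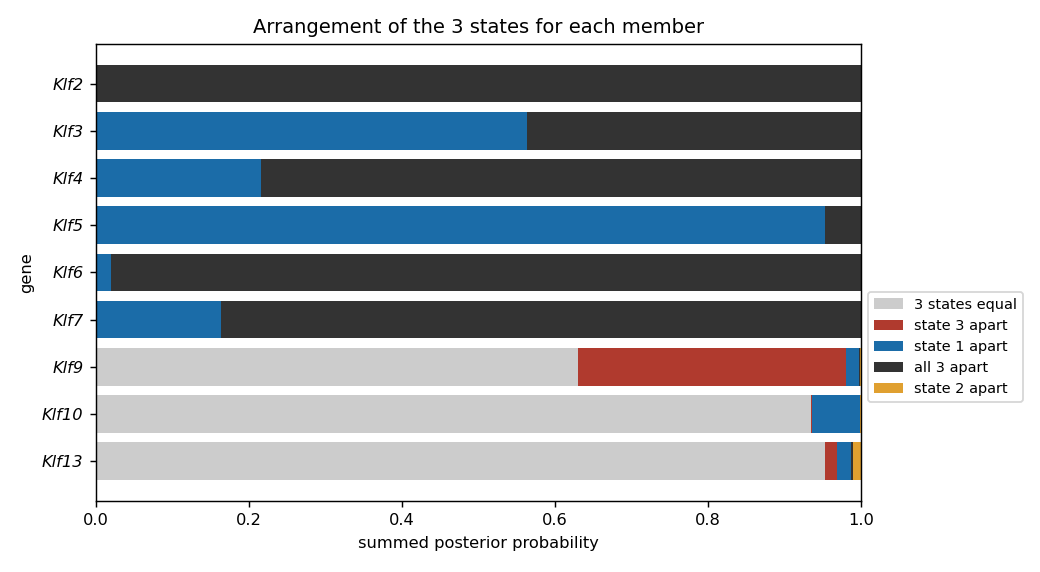
Summed posterior probability (horizontal axis, 0 to 1) of each arrangement of the 3 states for the 9 members, as stacked bars from the authors' deposited scores. Klf2 and Klf6 are almost wholly in the arrangement with all 3 states apart, Klf5 in that with state 1 apart, and Klf10 and Klf13 in that with equal states.

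Between state 2 and state 1, 6 of the 9 members were called, 4 lower and 2 higher, where 13.4% of all 29692 genes were called, 6.33% lower and 7.11% higher. The members all had mean values above 100, and among the 9953 genes at or over that level 28.9% were called, a background added after the data were seen. Between state 3 and state 2, Klf2 was called lower and Klf6 higher, 2 of 9, beside 8.59% of all genes (3.19% lower and 5.41% higher) and 18.4% of genes at that level. This count is close to the background of genes at that level. Between state 3 and state 1, 6 of 9 were called, again 4 lower and 2 higher, beside 20.4% of all genes (9.01% lower and 11.4% higher) and 42.5% of genes at that level. The median log2 ratio of the members was -0.094, -0.14 and -0.51 in these comparisons, beside 0 for all genes in each, and it hides members that move in opposite directions. Each state enters 2 of these comparisons, so the counts are not independent.

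The total population lay between state 1 and state 2 for each of the 6 members called between the states. On the log2 scale it stood at 0.0525 of the distance from state 1 to state 3 for Klf4, the least, and at 0.321 for Klf7, the most, beside a median of 0.215 over all genes called between state 3 and state 1. Against the total population, state 1 was called for 2 members: Klf6 was 1.60-fold and Klf7 1.48-fold lower in state 1, where 1.98% of all genes (1.27% lower, 0.707% higher) and 4.49% of genes with a mean value of at least 100 were called. Klf2 was 1.36-fold higher in state 1 than in the total population, with a summed probability of 0.117, and was not called. State 2 and state 3 were each called against the total population for the same 6 members, 4 lower and 2 higher, where state 2 was called for 11.1% of all genes (5.30% lower, 5.82% higher) and 24.2% of genes at that level. For state 3 these shares were 19.1% (8.32% lower, 10.8% higher) and 39.7%. These comparisons share the total population.

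The other Klf genes were read by subgroup. The subgroups are the textbook classes of the family and were applied after the values were seen. In the CtBP class all 3 genes were called lower in state 2 than in state 1, beside 6.33% of all genes and 15.6% of genes with a mean value of at least 100. Klf8 read 422, 170.3 and 121 over states 1, 2 and 3, and both steps were called (log2 -1.31 and -0.49). Klf12 had values of 176, 114 and 133, called between state 2 and state 1 (log2 -0.62) and not between state 3 and state 2 (summed probability 0.0972).

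Of genes with a mean value of at least 100, 28.9% were called between state 2 and state 1 and 42.5% between state 3 and state 1. All 6 genes of the Sin3 class except Klf14, at a mean value of 3.43, stood at that level. In this class 0 of 6 genes were called between state 2 and state 1 from the authors' EBSeq probabilities, and 1 was called between state 3 and state 1. That gene was Klf11, a close relative of Klf10, with values of 384, 342 and 299 in states 1, 2 and 3 (log2 -0.36, summed probability 0.975). At the looser limit of 0.90, Klf11 stays uncalled between state 2 and state 1, with a summed probability of 0.894. Klf16 had values of 974, 865 and 894 and was not called. In the activator class of 6 genes, 3 were lower and 2 higher in state 2 than in state 1 (6.33% and 7.11% of all genes). The 1 not called was the erythroid factor Klf1, at 8.72 and 10.7.

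Klf15, a metabolic regulator outside these classes, read 135, 64.8 and 32.8 over the same states, and both steps were called (log2 -1.05 and -0.96). Klf14 had values of 1.28, 4.79 and 6.28, and Klf17, a factor of human naive cells, had 4.98 and 1.80 in states 1 and 2. In state 3 Klf17 was listed at 0, which allows a value of up to 1.08 if 3 reads could be missed. Neither was called. Over all 17 Klf genes, 7 were lower and 2 higher in state 2 than in state 1 (6.33% and 7.11% of all genes). In state 3 against state 1, 8 were lower and 2 higher (9.01% and 11.4% of all genes). Klf6 and Klf7 were the only genes of the family called higher in state 2 or state 3 than in state 1. Against the total population, Klf8 and Klf11 were called higher in state 1 (log2 0.48 and 0.38), beside 0.707% of all genes.

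**Figure D3:**
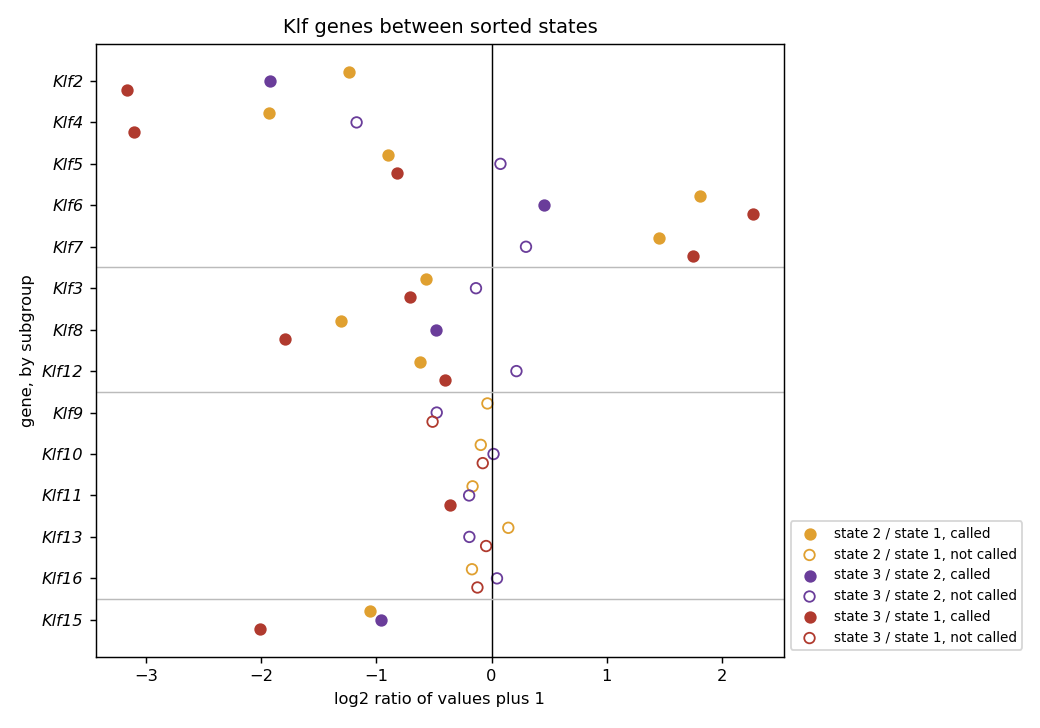
Log2 ratio of values plus 1 (horizontal axis) for the 14 Klf genes with a mean value of at least 20, grouped by class: activators, the CtBP class, the Sin3 class and Klf15. Filled points were called and open points were not; only Klf6 and Klf7 have filled points to the right of 0.

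The Sp factors share the zinc finger domain and many GC box sites with this family. Of 9 Sp genes, 2 were called higher and 2 lower between state 2 and state 1. Over all genes, 7.11% were higher and 6.33% lower in that comparison, and 28.9% of genes with a mean value of at least 100 were called. Sp5, Sp7, Sp8 and Sp9 lay under that level, with mean values of 57.4, 3.18, 27.2 and 2.715. Sp5, a Wnt target that sustains self-renewal in culture, read 24.5, 43.4 and 123 over states 1, 2 and 3, and was called between state 3 and state 2 (log2 1.48). Sp8, a developmental factor of limb and brain, had 3.23, 20.5 and 74.0, with both steps called (log2 2.34 and 1.81). Sp6 was called higher in state 2 than in state 1, at 144 against 92.6. Sp1, the widely expressed founder of the class, fell slightly from 4719 to 4290 and to 3593, with both steps called (log2 -0.14 and -0.26), and Sp2 fell from 739 to 551 in the first step. The second Sp1 step, 1.19-fold, was called while the 2.25-fold second step of Klf4 was not, so the calls do not follow the size of a change alone. Sp3, Sp4, Sp7 and Sp9 were not called between the states.

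Genes that feed into the family did not move as a single block; the median log2 ratio over all genes was 0 in each comparison of states. The counts of the lists that follow stand beside genes with a mean value of at least 100. Of these, 28.9% were called in either direction between state 2 and state 1. The shares were 18.4% between state 3 and state 2 and 42.5% between state 3 and state 1. In the same order, 15.6%, 7.83% and 21.7% were lower and 13.3%, 10.6% and 20.8% higher. Over all genes 6.33%, 3.19% and 9.01% were lower and 7.11%, 5.41% and 11.4% higher. Some listed genes, such as Tgfbr2 and Tsc22d3, had values under 100 in states 1 and 2. In the LIF and STAT3 list, 4 of 5 genes were lower in state 2 than in state 1 and 0 were higher, at a median log2 ratio of -0.66. Lifr, the LIF receptor, fell from 3032 to 1438, Socs3, a feedback inhibitor and STAT3 target, from 2057 to 1247, and Stat3 from 1953 to 1439, beside the 3.80-fold fall of Klf4. Between state 3 and state 2 none of these 3 was called, and Jak1, a kinase of the receptor, rose from 844 to 1118. The part of this list in the values of Klf4 was not tested.

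In the ERK5 and MEF2 list, which holds the input to Klf2 known from endothelial cells, 0 of 7 genes were lower in any comparison between states. Mef2a rose from 253 in state 1 to 410.1 in state 2, Mef2c from 5.30 in state 2 to 15.1 in state 3, and Map3k3 from 644 in state 2 to 781 in state 3. Mapk7, which encodes ERK5, had values of 861, 849 and 814 in states 1, 2 and 3 and was not called. Klf2 fell over the same states, and the part of this list in its values was not tested.

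In the TGF-beta list, 6 of 7 genes were higher in state 3 than in state 1 and 0 were lower, at a median log2 ratio of 0.61. Tgfbr2, the ligand-binding receptor, rose from 18.4 in state 1 to 48.5 in state 2 and 120.4 in state 3. Tgfb1 rose from 117 to 215 between state 2 and state 3, and Tgfbr1 was higher in state 3 than in state 1, at 649 against 410.5. Klf10 held level values over these states, and the part of this list in its values was not tested. In the hormone receptor and glucocorticoid target list, 2 genes were higher and 2 lower in state 2 than in state 1. Nr3c1, the glucocorticoid receptor, rose from 204 to 385, and Tsc22d3 from 24.6 to 62.1, while Sgk1 fell from 6336 to 4272 and then to 1705 in state 3.

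Among 12 cofactors, 1 was higher and 6 lower in state 3 than in state 1. Fhl3, a LIM protein that binds Klf3, rose from 85.9 in state 1 to 215 in state 2. Kat2b, an acetyltransferase, fell from 1125 to 571 and to 316, and Ncor1, a corepressor, fell from 7099 to 5319 in the first step. Ctbp2, the CtBP form best known as a partner of Klf3, had values of 5375, 4864 and 4310 and was called between state 3 and state 1 (log2 -0.32). Among 8 turnover genes, all with a mean value above 100, 1 was higher and 2 lower in state 3 than in state 1, a share no larger than the 42.5% of genes at that level. Of those called, Fbxw7, a ubiquitin ligase adaptor for Klf2 and Klf5, had 935 and 756, Btrc 492 and 400.5, and Smurf1 651 and 741 in states 1 and 3.

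Most of the naive factors known to share targets with Klf2, Klf4 and Klf5 fell over the states. Of 10 such genes, Nanog itself included, 7 were lower in state 2 than in state 1 and 0 were higher (median log2 -1.86). In that comparison 6.33% of all genes and 15.6% of genes with a mean value of at least 100 were lower. Between state 3 and state 2, 8 of the 10 were lower, beside 3.19% of all genes and 7.83% of genes at that level. Klf2 was called in this step, and Klf4 and Klf5 were not. Dppa3, a maternal factor, was lower in the second step only (162, 167 and 26.5 in states 1, 2 and 3). Gbx2 (log2 0.20 between state 3 and state 1) and Sall4 (log2 -0.49) were not called between the states. Esrrb, an orphan nuclear receptor, had values of 9206, 1945 and 602 in states 1, 2 and 3, Tbx3 had 2549.5, 372 and 219, and Prdm14 had 347, 67.8 and 19.2. The log2 ratios of Klf2 and Klf4 between state 3 and state 1, -3.16 and -3.10, lay near the median of this list, -2.99, and that of Klf5, -0.82, did not reach it. Nanog and Sox2, the sort genes, had log2 ratios of -3.23 and -1.67 in that comparison.

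Krüppel-like factors are also among the genes that tissue dissociation can induce, so 16 immediate-early genes were read beside them. Of these, 12 were higher in state 2 than in state 1 and 0 were lower, beside 7.11% of all genes and 13.3% of genes with a mean value of at least 100 called higher. Their summed value was 7918 in state 1, 11079 in state 2, 16424 in state 3 and 8900.2 in the total population. Cyr61 rose from 342 to 1517 and to 3599.9, Atf3 from 47.7 to 134 and to 311, and Egr1 from 149 to 466 in the first step. Klf6 and Klf7 rose from state 1 to state 2 as these genes did, while Klf2 and Klf4 fell and Klf10 was not called. The part of this list in the values of Klf6 and Klf7 was not tested.

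Many markers of other cell types were also higher in state 3, where 11.4% of all genes were called higher than in state 1. Of 9 feeder fibroblast markers measured, 4 were higher in state 3 than in state 1, with summed values of 102, 213, 1234 and 225 in state 1, state 2, state 3 and the total population. Dcn was listed at 0 in state 1 and at 12.4 in state 3, and Lum was at 0 in state 2. Postn was looked up and not listed under that symbol. Of 10 primitive endoderm markers, 7 were higher in state 3 than in state 1 and 0 lower, with summed values of 1745, 3076, 8355 and 2175. Of 10 trophectoderm markers, 8 were higher and 1 lower, with summed values of 1339, 2968, 10891 and 2294, and Elf5 was at 0 in state 2. Their part in the values of the members was not tested.

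The genes whose profile lay closest to each member were found by the distance between log2 values of the 4 groups, centred on their mean, over 9424 named genes with a mean value of at least 100. Closest to Klf2 were Dpp4, a peptidase of the cell surface (distance 0.158), Inpp5d, an inositol phosphatase (0.252), and Krt42 (0.289). Closest to Klf4 were Nlrp4f (0.0790), Hal, histidine ammonia-lyase (0.199), and Cobl, an actin nucleator (0.237). Nlrp4f had values of 300.2, 76.8 and 32.5 in states 1, 2 and 3.

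Closest to Klf5 were Irf2bpl (0.0788), the ETS repressor Erf (0.0844) and Qprt (0.0948). Erf had values of 4056, 2138 and 2317 in states 1, 2 and 3. Closest to Klf6 were Fam84b (0.0774), Jun, the AP-1 subunit (0.0919), and Tmem63a (0.130). Jun had values of 186, 623 and 829.6, against 495, 1735 and 2384 for Klf6. Closest to Klf7 were the kinesin Kif5c (0.0519), Rnf122 (0.114) and Rab15 (0.119), and Kif5c had 277, 733 and 891. For Klf3 they were Sap30, a subunit of the Sin3 complex (0.0270), Golph3l (0.0271) and Sgsm3 (0.0315), for Klf9 Slc25a40 (0.0243) and BC052040 (0.0430), for Klf10 Jagn1 (0.0102), E2f3 (0.0133) and Tm2d3 (0.0138), and for Klf13 G6pdx (0.0237), Tmem101 (0.0275) and Dsn1 (0.0372). Within a distance of 0.2 lay 449 genes for Klf3, 392 for Klf9, 3392 for Klf10 and 1755 for Klf13, so the genes named for these are a few of many. For Klf2, Klf4, Klf5, Klf6 and Klf7 the counts were 1, 2, 45, 9 and 24. Each profile has 4 points with 1 value each, so these are descriptions.

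A second kind of library gave a separate reading. Small RNA-seq covered 8 other libraries, 2 per group, and its table also lists fragments of messenger RNA under the gene symbols. All 9 members were listed, at values of 2.58 to 24.8, where 1 read was worth about 0.31 to 0.74, so counting error is large. Klf2 had 24.8 in state 1, 6.44 in state 2, 6.18 in state 3 and 19.1 in the total population. It was called lower in state 2 than in state 1 (log2 -1.80) and not between state 3 and state 2 (log2 -0.051, summed probability 0.0132). Klf6 had 4.41, 19.8, 24.2 and 10.8 in the same order and was called higher in state 2 than in state 1 (log2 1.94). Both directions and the order of state 1 and the Nanog-low states were those of the RNA-seq values.

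Klf2 and Klf6 were 2 of 9 members called between state 2 and state 1 in this table, where 0.696% of 26278 features and 2.70% of the 6483 features with a mean value of at least 5 were called. Between state 3 and state 1 the same 2 genes were called, beside 1.63% of all features, and between state 3 and state 2 0 members were, beside 0.970%. The other 7 members were not called between the states from the authors' EBSeq probabilities. Klf4 had 6.12 in state 1, 2.58 in state 2, 4.03 in state 3 and 18.4 in the total population. Its total population stood above every sorted state and was called against state 2 and state 3 with summed probabilities of 0.965 and 0.964 (0.563% and 1.38% of all features were called). Klf2 was also called lower in state 2 and state 3 than in the total population (log2 -1.43 and -1.48). State 1 against the total population was not called for any member, beside 0.194% of all features. For Klf4, a total population above every sorted state is an order that the RNA-seq values, with state 1 highest, did not have. Klf7 had 5.83, 12.3 and 8.35 and Klf5 had 15.9, 9.67 and 12.1 in states 1, 2 and 3. For Klf3 the log2 ratio of state 3 to state 1 was 0.46 here and -0.71 in the RNA-seq table, where it was called. The median over 5375 protein-coding features with a mean value of at least 5 in the small RNA table was 0.096 in that comparison.

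**Figure D4:**
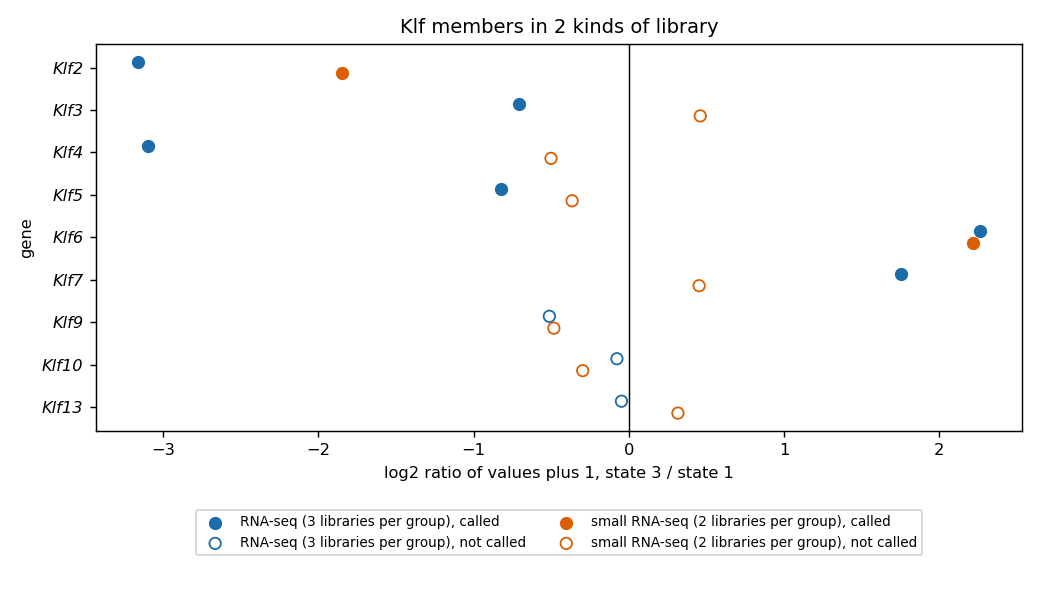
Log2 ratio of values plus 1 of state 3 to state 1 (horizontal axis) for the 9 members in the RNA-seq table and in the small RNA-seq table. Filled points were called: Klf2 at -3.16 and -1.85 and Klf6 at 2.26 and 2.22 are called in both, and Klf3 and Klf13 lie on opposite sides of 0 in the 2 tables.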

How the data were processed

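RNA-seq (12 libraries) and small RNA-seq (8 libraries) used RNA that was taken from sorted cells with Trizol and treated with DNase, per the labels' protocols. RNA-seq was rRNA-depleted with dUTP strand marking; whether reads were counted by strand is not given. The tools listed in the submitters' processing notes are STAR 2.4.1d, RSEM 1.2.30, with the builds mm10 and GRCm38 and no roles. In both tables the authors deposited a normalized signal per feature and group, not scaled to a fixed total and not per length, so levels were not compared between genes. Summed values of a gene list are plain sums, in which the genes of highest value weigh most. The authors also deposited EBSeq's posterior probabilities as a score for every one of the 15 ways in which the 4 groups can be equal or differ. How libraries were scaled and merged is not given in the sources at hand. The pattern order is not written in the tables. It was read as state 3, state 2, state 1, total population, which suited 94.4% of 1453 RNA-seq genes with a strong pattern, against 90.8% for the next order, and 93.8% of 161 small RNA features.

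Scores of patterns that set a pair of groups apart were summed (Python 3.11.15, pandas 2.3.3), and 0.95 or more was called. Log2 ratios and folds used values plus 1. No test on libraries and no p-value was possible. Members, gene lists and naming rules (all members, the other Klf and Sp genes, up to 3 called genes per list and 3 nearest profiles per member, of which 1 is not reported here; Jak1, Mapk7, Ctbp2, Nanog, Sox2 and the marker genes at 0 were named in addition) were chosen with earlier results of these data known. Coordinates and upstream sequences are RefSeq's for GRCm38.p6, matched by symbol for 9 of 9 and 7 of 9 members. The alternatives were other probability limits, a minimum fold, the exchanged pattern order, pseudocounts and scalings.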

Additional observations from a re-analysis of the deposited data

How the results depend on the processing

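The number of members called kept within 1.5 times its reported value in 21 of 24 recomputations, but in 3 of those 21 it went from 6 to 5: under the 1.5-fold rule Klf3 was lost between state 2 and state 1 and in states 2 and 3 against the total population. The other 3 were between state 3 and state 2, where 1 member (Klf2, lower) was left of 2 at a summed probability of 0.99 and also 1 where a 1.5-fold change was required, and between state 1 and the total population, where 1 (Klf6) was left of 2 under the 1.5-fold rule. Each follows from the stricter rule. Exchanging state 1 and the total population in the pattern order changed no member's call. Over 324 log2 ratios with pseudocounts of 0.1 and 10 or other scalings, the largest shift was 0.081 and no called member changed direction; 11 values changed sign, all of uncalled ratios of Klf9, Klf10 and Klf13. Quantile scaling moved the median of all genes by -0.13 between state 3 and state 1 and that of the members by 0.025. Requiring a mean value of at least 5 raised the share of genes called in all 6 comparisons, for example from 13.4% to 23.6% between state 2 and state 1. No paired analysis was possible because the tables hold 1 value per group; leaving out single libraries was not run for the same reason.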
